A study of Mus musculus with 24 samples.

Results

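The miRNA genes that mouse databases number from miR-674 to miR-720 were measured with 46 TaqMan assays in primary mouse bone marrow and 3 mouse tumour cell lines. Members were all assays named mmu-miR- with a number in that range other than that of miR-679, whatever their letter, arm or star, and they make up 46 of the 584 miRNA assays of the study. Of these, 24 were detected in at least 1 of the 4 groups and 22 in no replicate of any group. The groups, with 3 replicates each, were CT-BM, L-1210, M1 and PYS. CT-BM is primary bone marrow that the design text says was flushed out of femurs and tibias, although the growth protocol describes a suspension culture of single round cells. L-1210 is a lymphocytic leukaemia line and M1 a myeloid leukaemia line, both grown in suspension. PYS is a teratocarcinoma line of adherent, epithelial-like cells. The lines were at passage 3, no group was treated, and the labels give no strain, sex or age for the marrow donors. They also do not say whether the replicates were separate cultures or animals, so the p-values below measure only the spread between these replicates, which may be technical.

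A miRNA is cut from a hairpin in a longer transcript, first by Drosha with DGCR8 in the nucleus and then by Dicer in the cytoplasm, and 1 strand of the resulting duplex is usually kept in Argonaute while the other, marked with a star in older names, is mostly lost. The kept strand pairs with target mRNAs through its seed, bases 2 to 8 from the 5′ end, and lowers their translation and stability. Numbers in this range were given in the course of the cloning and prediction of mouse miRNAs, and many of these genes lack a known human counterpart or have been disputed as miRNA genes. A few have well described biology. The miR-675 hairpin lies in H19, the imprinted growth-restraining transcript; miR-708 sits in an intron of Tenm4 and belongs to the miR-28 seed family; miR-702 has been described as a mirtron, a hairpin released by splicing without Drosha; and miR-720 has been reported to be a fragment of a transfer RNA.

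The sequences of the members that were detected in some groups and not in others are shown first, since these carry the largest differences. They are RefSeq mature miRNAs of build GRCm38.p6, written 5′ to 3′ with the seed in capitals. For assays matched by number only, the assay name does not say which arm it reads, so each arm RefSeq holds is given and none is assigned.
mmu-miR-674-5p: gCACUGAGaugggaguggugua
mmu-miR-674-3p: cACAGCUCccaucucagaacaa
mmu-miR-676-3p: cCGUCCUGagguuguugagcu
mmu-miR-682: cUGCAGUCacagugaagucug
mmu-miR-692: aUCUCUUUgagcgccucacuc
mmu-miR-701-5p: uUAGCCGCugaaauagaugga
mmu-miR-701-3p: uAUCUAUUaaagaggcuagc
mmu-miR-702-5p: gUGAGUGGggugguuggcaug
mmu-miR-702-3p: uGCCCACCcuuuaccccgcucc
mmu-miR-708-5p: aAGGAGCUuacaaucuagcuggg
mmu-miR-708-3p: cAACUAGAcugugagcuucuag
mmu-miR-28a-5p: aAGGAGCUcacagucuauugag
The last is no member and is printed because its seed is the same as that of miR-708-5p. The members of this set lie apart from each other in the genome. The miR-674 arms are at chr2:117185151-117185172 and chr2:117185186-117185207 on the plus strand, outside any other gene's span. The miR-676 entry is at chrX:100381151-100381171 (plus) inside the span of Eda, the ligand of the ectodysplasin pathway, and miR-682 at chr13:75645119-75645139 (plus) inside Gm4149. RefSeq places the letters of miR-692 at 3 loci, of which chr13:74407121-74407141 (plus) lies in the ferritin light chain pseudogene Ftl1-ps1, chr4:125504805-125504825 (plus) in Ftl2-ps within Grik3, and chr17:6895259-6895279 (minus) outside other genes. The miR-701 arms are at chr5:111004170-111004190 and chr5:111004208-111004227 (plus) inside Ttc28. The miR-702 arms are at chr5:136991442-136991462 and chr5:136991520-136991541 (plus) inside Plod3, a collagen lysyl hydroxylase gene. The miR-708 arms are at chr7:96249450-96249472 and chr7:96249496-96249517 (plus) inside Tenm4.

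The sequences of members that were detected in all 4 groups and changed most between groups, together with miR-690 and miR-706, which were among the earlier-crossing assays, are the following.
mmu-miR-680: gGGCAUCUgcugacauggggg
mmu-miR-704: aGACAUGUgcucugcuccuag
mmu-miR-700-5p: uAAGGCUCcuuccugugcuugc
mmu-miR-700-3p: cACGCGGGaaccgaguccacc
mmu-miR-678: gUCUCGGUgcaaggacuggagg
mmu-miR-690: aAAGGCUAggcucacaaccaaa
mmu-miR-706: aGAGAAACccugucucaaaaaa
The letters of miR-680 are placed at 3 loci on chromosomes 6, 12 and X, none of them inside another gene's span. The other hairpins of this set lie within Pdia4 (miR-704, chr6:47803590-47803610, minus), Rcan3 (miR-700, chr4:135416561-135416581 and chr4:135416601-135416622, minus), Prmt2 (miR-678, chr10:76207333-76207354, minus), Fgf12 (miR-690, chr16:28599940-28599961, minus) and Wnk1 (miR-706, chr6:120034290-120034311, minus). The letters of miR-706 closely resemble the end of the B1 element, a short repeat present in very many copies in rodent genomes. Over all members, 26 had an entry of the same name, 11 were matched by number and 9 had no entry, namely miR-684, miR-685, miR-694, miR-696, miR-699, miR-709, miR-712*, miR-715 and miR-720. All of these except miR-712* were detected, so 8 of the 24 detected members are missing from the sequence, locus and hairpin comparisons. The matched members gave 41 different mature sequences with 41 different seeds, so no pair of them shared a seed. Of 37 matched hairpin genes, 28 lay inside the span of another gene, 13 of 18 among detected members and 15 of 19 among members that were not detected. The strands of hairpin and enclosing gene were not compared. Among the members with an entry of the same name, the median GC content of the mature sequence was 52.4% for the 7 detected (36.4 to 66.7%) and 52.4% for the 19 not detected (36.4 to 81.0%).

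The measured quantity is the Ct, the PCR cycle at which a well crosses the fluorescence threshold, so that a lower Ct means more template and 1 cycle is nominally a doubling. An assay was counted as detected in a replicate when it crossed by Ct 35. Levels are given as the negative of the Ct minus the mean Ct of 3 small RNA controls on the same card, the nuclear MammU6 and the nucleolar snoRNA135 and snoRNA202, which is a log2 scale on which higher means more. Each replicate was run on a card A and a card B of 367 to 380 wells, 48.3% of all wells were undetermined, and each card carried its own controls. Repeat wells of 1 member in 1 replicate differed by a median SD of 0.095 cycles over 131 sets. The controls themselves differed between groups. On card A, mean snoRNA202 Ct was 15.9 in CT-BM and 13.2 in L-1210, while mean MammU6 Ct was 10.1 and 10.8. The fold changes therefore depend on the scaling. A change of controls moves all members on a card together, while quantile normalization moves them unequally. Over 7 scalings (the 3 controls together, each alone, the snoRNAs together, the mean of commonly detected assays and quantile normalization), the median log2 change of all tested assays ran from −2.47 to 1.05 for L-1210 against CT-BM, from −1.03 to 0.61 for M1 and from −0.84 to 1.84 for PYS. With all 3 controls these medians were −0.82, −0.59 and 0.08. For members measured in both groups, the number of scalings that made the same call is given where it is below 7. Marker assays followed the labels in part. The embryonic miR-291a-3p, miR-294, miR-295, miR-302a and miR-302b had mean Ct of 15.7 to 20 in PYS and crossed at a mean Ct of 28 or later, or not in every replicate, elsewhere. The blood marker miR-142-3p had mean Ct of 17.5, 17.8 and 17.5 in CT-BM, L-1210 and M1 against 32 in PYS. For miR-142-5p it was 23.1, 23.7 and 22.9, with no signal in PYS. The blood marker miR-150, however, had a mean Ct of 26.3 in L-1210, later than the 25 in PYS and 19.9 in M1, and the endothelial miR-126-3p was read in all groups, at mean Ct 16.6 to 19. The blood marker miR-223 was also late in L-1210, at mean Ct 26.2, against 13.5 in CT-BM, 14.7 in M1 and 31.3 in PYS. The stromal markers miR-143 and miR-214 and the erythroid miR-486 were detected in CT-BM only, while miR-145 and miR-199a-3p of the stromal and miR-451 of the erythroid list were highest there and also read in other groups. In bulk RNA, fewer cells of a type and less RNA per cell cannot be told apart, and the part of these other cell types in the members' differences was not tested.

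Detection was all or none. No member was detected in some replicates of a group and not in others, no member well crossed after Ct 35, and the 885 member wells ranged from Ct 13.3 to 32 or, for 535 wells, were undetermined. The 24 detected members comprised 12 found in all 4 groups, 6 in 3 groups, 2 in 2 groups and 4 in 1 group. PYS had the most detected members, 21 of 46 (45.7%), followed by CT-BM with 20 (43.5%), M1 with 17 (37%) and L-1210 with 16 (34.8%). The same shares over all assays are not given for each group, so this order cannot be read as particular to the members. The share detected in at least 1 group was 52.2% of the members and 69.4% of the other mouse-named assays (327 of 471). The neighbouring range of numbers, miR-721 to miR-770, had 6 of 17 (35.3%). By card, members and other mouse-named assays had 61.5% and 71.4% on card A, and 48.5% and 65.1% on card B. Detection in all 4 groups held for 26.1% of the members and 38.2% of the other mouse-named assays. These shares are descriptions, and no test was made of the difference between them.

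**Figure D1:**
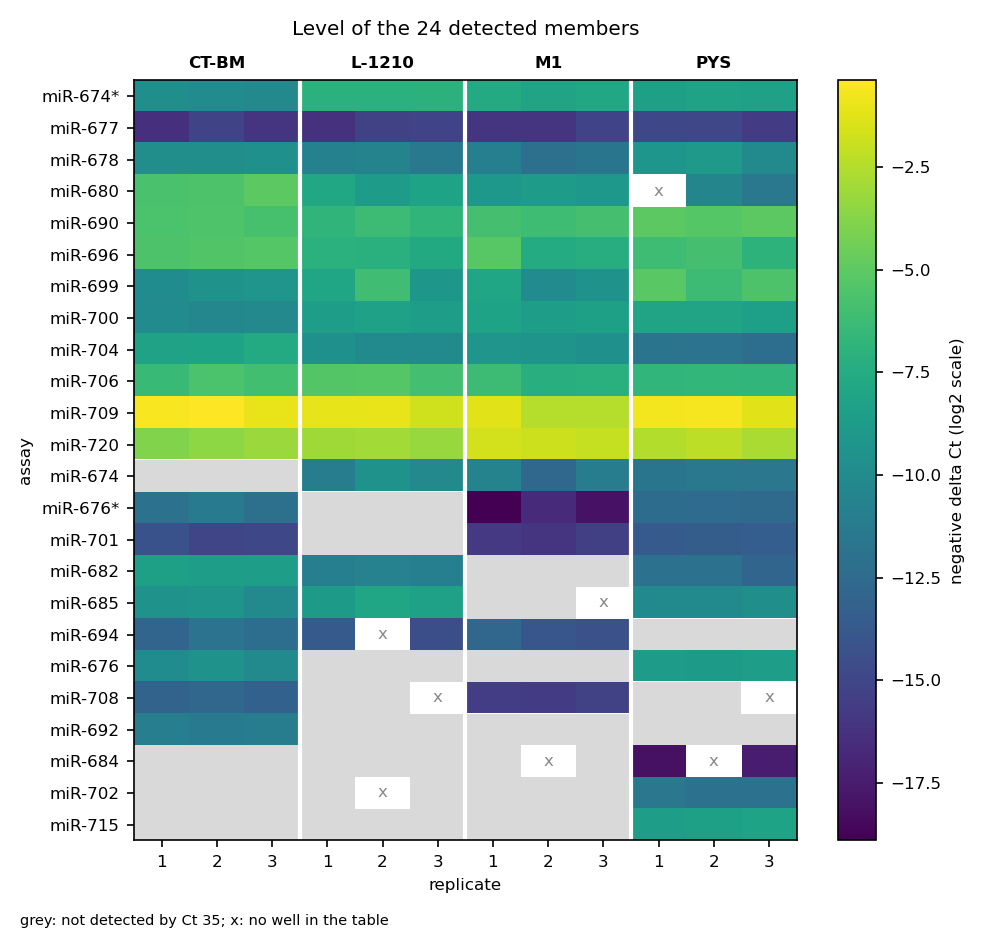
Level (negative delta Ct, log2 scale, colour) of the 24 detected members in the 3 replicates of each group, with grey cells for not detected by Ct 35 and x for values absent from the table. miR-709 and miR-720 are bright in all groups, and the lower block holds the 12 members with grey groups, of which miR-684, miR-702 and miR-715 have colour in PYS alone.

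The teratocarcinoma line alone gave a signal for miR-715, miR-702 and miR-684. For miR-715 the Ct in PYS was 21.8, 21.1 and 20.9, and none of the 18 wells of the other groups amplified. This is a mid-range reading in PYS against no reading elsewhere, and the level was at least 5746-fold higher than in CT-BM, at least 16551-fold higher than in L-1210 and at least 20327-fold higher than in M1 (log2 14.31 ± 0.30 SE, limma adjusted p = 5.15e-14). Here and below, "at least" marks a comparison in which the other group was not detected and was set to Ct 35, so that the SE holds only the spread of the detected group, of the controls and of the shared variance. For miR-702 the Ct in PYS was 24.8, 24.7 and 24.7. It too was undetermined in every other well, and its level was at least 521-fold higher than in CT-BM and at least 1844-fold higher than in M1 (log2 10.85 ± 0.31, limma adjusted p = 4.16e-12). For miR-684, PYS gave Ct 31.98 in replicate 1 and 31.6 in replicate 3, with replicate 2 absent from the table. These are the weakest readings among the members and lie near the limit: the bound was 26.0-fold against M1 (log2 4.70 ± 0.38, limma adjusted p = 4.26e-07) and 5.43-fold against CT-BM, and with the limit at Ct 32 the latter turned to a log2 difference of −0.56.

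Marrow alone gave a signal for miR-692, the miRNA whose letters lie in ferritin pseudogenes. Its Ct in CT-BM was 24.8, 25.2 and 25.8, each the mean of repeat wells, and none of 18 wells of the 3 lines amplified. The level in CT-BM was at least 2458-fold above L-1210, at least 3019-fold above M1 (log2 −11.56 ± 0.27 for M1 against CT-BM, limma adjusted p = 4.49e-13) and at least 2020-fold above PYS. The calls held under all 7 scalings, which bounds of this size could hardly fail to do.

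The miR-674 hairpin was read by an assay for each strand, and the marrow differed from the lines in both. miR-674 was undetermined in all 3 CT-BM wells, whereas its Ct was 23.4, 25.0 and 23.3 in M1, 25.0, 23.7 and 23.5 in L-1210, and 25.6, 25.0 and 25.8 in PYS. It was thus at least 971-fold higher in L-1210 than in CT-BM (log2 9.92 ± 0.52, limma adjusted p = 1.5e-09), at least 426-fold higher in M1 and at least 383-fold higher in PYS. Among the lines, it was 2.53-fold lower in PYS than in L-1210 (adjusted p = 0.0272 by limma), a call made under 6 of 7 scalings (log2 −2.15 to −0.30) and lost without L-1210 replicate 2 (log2 −0.92) or 3 (−1.32) or any PYS replicate (−1.38 to −1.29). The 2.28-fold difference of L-1210 from M1 was not called, and passed without L-1210 replicate 1 (log2 1.64) or M1 replicate 1 (log2 1.62). miR-674* was present everywhere. Its levels were −9.68, −10.00 and −10.18 in CT-BM, −7.58, −8.06 and −7.83 in M1, −7.08, −7.07 and −6.99 in L-1210 and −8.41, −8.23 and −8.32 in PYS. All 9 line replicates lay above all 3 marrow replicates, and the level rose 7.50-fold in L-1210 (log2 2.91 ± 0.20, limma adjusted p = 2.46e-08), 4.38-fold in M1 and 3.10-fold in PYS. The first 2 calls held under all 7 scalings and the PYS call under 4, with the log2 change of PYS between 0.45 and 3.66. Both strand assays therefore read higher in each line than in marrow, but by unlike amounts, at least 971-fold and 7.50-fold in L-1210. No strand difference is given for CT-BM, where miR-674 had no signal. In the lines, the level of miR-674 minus that of miR-674* was −3.63 ± 0.91 (SD, n = 3) in M1, −3.22 ± 0.86 in L-1210 and −3.29 ± 0.02 in PYS, which did not differ beyond the spread. Because the assays sit on different cards and have their own efficiencies, these differences compare groups and do not say which strand is more abundant.

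The miR-676 hairpin, within Eda, separated marrow and teratocarcinoma from the leukaemia lines. For miR-676 the Ct was 24.4, 24.5 and 25.0 in CT-BM and 22.6, 22.3 and 22.8 in PYS, and no L-1210 or M1 well amplified. The level was at least 14999-fold higher in PYS than in M1 (log2 13.87 ± 0.28, limma adjusted p = 4.74e-14), at least 5870-fold higher in PYS than in L-1210, and at least 2677-fold and 6840-fold lower in L-1210 and M1 than in CT-BM. PYS exceeded CT-BM by 2.19-fold, a call kept under 4 of 7 scalings and lost without CT-BM replicate 3 (log2 0.98). The star assay followed with 1 difference. miR-676* had Ct 25.7, 25.2 and 26.7 in CT-BM, 25.7, 25.2 and 25.2 in PYS and 31.4, 29.3 and 29.9 in M1, and was undetermined in L-1210. M1 thus gave a late but repeated reading of the star strand where miR-676 itself gave none. The level was at least 1602-fold lower in L-1210 than in CT-BM (log2 −10.65 ± 0.45, limma adjusted p = 1.86e-10) and 71.1-fold lower in M1, and PYS against CT-BM missed the threshold (log2 −0.72 ± 0.45, limma adjusted p = 0.145), turning to 1.30 with MammU6 alone. The level of miR-676 minus that of miR-676* was 1.91 ± 0.12 (SD, n = 3) in CT-BM and 3.76 ± 0.16 in PYS, and the ranges of the replicates, 1.78 to 2.01 and 3.66 to 3.95, did not overlap.

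**Figure D2:**
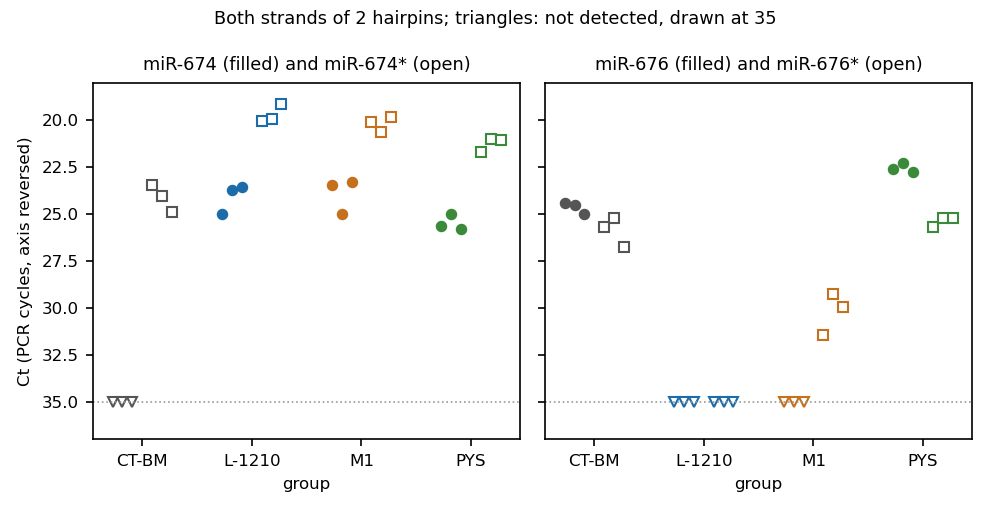
Ct (PCR cycles, axis reversed so that more template is higher) of both strand assays of the miR-674 and miR-676 hairpins in each replicate of the 4 groups, with open triangles at 35 for not detected. miR-674 is missing in CT-BM where miR-674* reads Ct 23.5 to 24.9, and miR-676 is missing in M1 where miR-676* reads Ct 29.3 to 31.4.

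The myeloid line gave no signal for miR-682 and miR-685, which were detected in the other 3 groups. miR-682 had Ct 22.9, 23.7 and 23.5 in CT-BM, 24.7, 25.0 and 24.2 in L-1210, 25.9, 25.4 and 27.1 in PYS and no signal in M1. Marrow was highest with no overlap: the level was at least 16523-fold lower in M1 (log2 −14.01 ± 0.27, limma adjusted p = 1.93e-13), 13.1-fold lower in PYS and 4.88-fold lower in L-1210, the last called under 6 of 7 scalings. For miR-685 the Ct was 24.0, 24.4 and 25.0 in CT-BM, 22.6, 22.2 and 21.6 in L-1210 and 24.0, 23.6 and 23.9 in PYS, with no signal in the 2 M1 replicates present. It was highest in L-1210, at least 17433-fold above M1 (log2 14.09 ± 0.34, limma adjusted p = 3.27e-12), 3.04-fold above PYS (called under 6 of 7 scalings) and 2.41-fold above CT-BM (5 of 7). The sign of the last turned with snoRNA202 alone (log2 −0.37). PYS and CT-BM overlapped for miR-685.

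The miR-694 assay was silent in the teratocarcinoma line alone. Its Ct was 26.7, 25.9 and 26.9 in CT-BM, 26.6 and 26.6 in the 2 L-1210 replicates present and 25.3, 26.5 and 26.2 in M1. Relative to CT-BM the level was at least 866-fold lower in PYS (log2 −9.76 ± 0.41, limma adjusted p = 2.46e-10). The L-1210 and M1 values were 3.35-fold and 2.55-fold lower than CT-BM and passed the threshold, under 4 and 5 of 7 scalings, but M1 overlapped CT-BM, the L-1210 call was lost without L-1210 replicate 3 (log2 −1.34), and the signs turned under 1 scaling each, to 0.03 with MammU6 alone and to 0.38 with quantile normalization.

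The miR-708 assay, whose gene's 5p arm carries the miR-28 seed, was restricted to marrow and the myeloid line. The Ct was 27.5, 27.9 and 28.0 in CT-BM and 28.4, 28.0 and 27.6 in M1, and neither the 2 L-1210 nor the 2 PYS replicates present gave a signal. Raw Ct was alike in CT-BM and M1, while the controls crossed earlier in M1. The difference between CT-BM and M1 thus appeared only after scaling, and its cause was not tested. The level was at least 320-fold lower in PYS than in CT-BM (log2 −8.32 ± 0.26, limma adjusted p = 8.12e-11), at least 250-fold lower in L-1210 and 5.81-fold lower in M1, the last called under 6 of 7 scalings with the sign turned under quantile normalization (log2 1.29). miR-708* was not detected in any group. The miR-28 assay, looked at because of the shared seed and chosen after its values were seen, was detected in all 4 groups and, with the 3 controls together, ordered otherwise: its level was 3.43-fold higher in L-1210, 8.40-fold higher in PYS and 3.88-fold lower in M1 than in CT-BM (limma adjusted p = 7.88e-05, 2.68e-07 and 3.5e-05). With these controls, the groups without a miR-708 signal were those with the higher miR-28 readings. This rests on 4 groups, the other scalings are not given for miR-28, and no link between the 2 assays was tested.

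The lymphocytic line gave no signal for miR-701, a late reading elsewhere. The Ct was 28.0, 29.0 and 29.6 in CT-BM, 28.4, 28.6 and 27.3 in M1 and 27.0, 26.2 and 26.1 in PYS. PYS was highest, at least 465-fold above L-1210 (log2 8.86 ± 0.29, limma adjusted p = 3.46e-12), 4.84-fold above M1 and 2.33-fold above CT-BM, the last called under 4 of 7 scalings. The M1 value, 2.07-fold lower than CT-BM, was called under 4 of 7 scalings. It turned to a log2 change of 3.65 under quantile normalization, and its call was lost without CT-BM replicate 1 (log2 −0.82) or M1 replicate 2 (log2 −0.89). PYS against M1, called under 6 of 7 scalings, turned to −0.10 under quantile normalization.

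**Figure D3:**
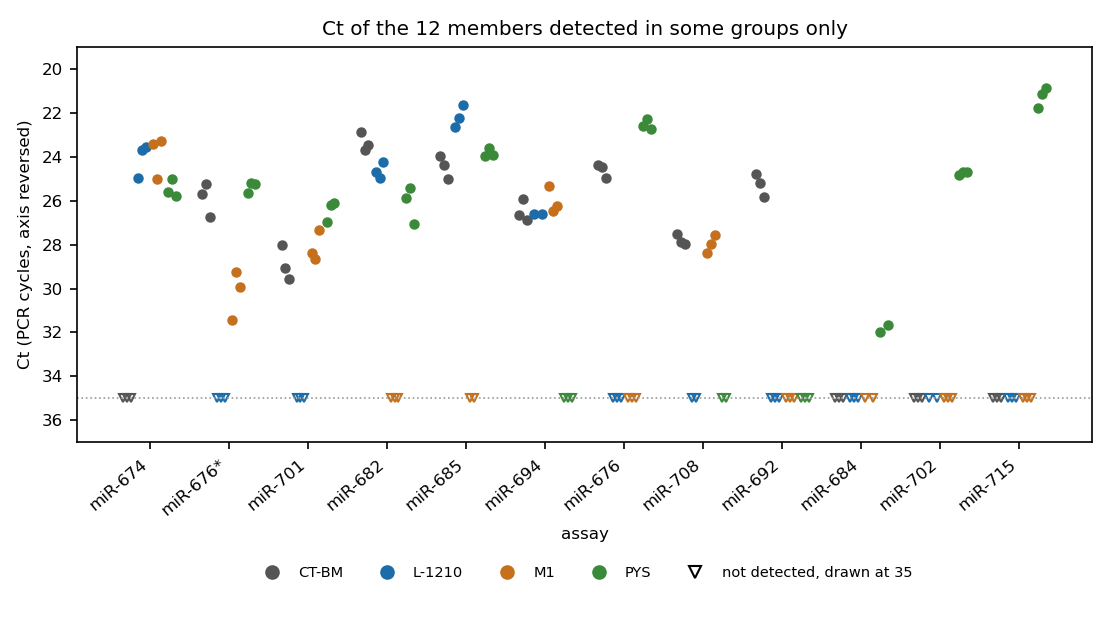
Ct (PCR cycles, axis reversed) of the 12 members detected in some groups only, 1 point per replicate coloured by group, with open triangles at 35 for not detected. Detected replicates lie between Ct 20.9 and 32, apart from the limit, and each group is either wholly detected or wholly at the triangles.

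Against marrow, the lymphocytic line differed in 17 of 21 tested members, where a call needed a 2-fold change or more and an adjusted p (Benjamini-Hochberg) under 0.05, with 5 higher (22.5% of all tested assays were called higher) and 12 lower (45.6%). Of all 333 assays tested, 68.2% were called, so a call was the usual outcome. The myeloid line had 17 of 21 members called, 4 higher (25.2% of all tested) and 13 lower (44.3%), where 69.5% of 325 assays were called. The teratocarcinoma line had 16 of 24 called, 10 higher (39.8%) and 6 lower (38.7%), where 78.5% of 362 assays were called. Members passed the detection filter through the group in which they were present, and 6, 5 and 7 of these calls were bounds against a group with no signal. Among members measured in both groups, the median log2 change was −0.62 for L-1210 (15 members, against −0.68 over 254 assays), −1.15 for M1 (16 members, against −0.14 over 239) and 0.30 for PYS (17 members, against −0.08 over 256). The split of directions moved with the controls: with MammU6 alone it was 10 higher and 6 lower in L-1210 and 17 higher and 6 lower in PYS, with snoRNA202 alone 2 higher and 16 lower in L-1210 and 2 and 15 in M1, with quantile normalization 7 and 9 in M1, and with snoRNA135 alone 5 and 11 in PYS. Calls in the same direction under all 7 scalings numbered 8 of 17, 8 of 17 and 11 of 16. Those in L-1210 were miR-674 and miR-674* higher and miR-676, miR-676*, miR-680, miR-692, miR-701 and miR-708 lower. In M1 they were miR-674 and miR-674* higher and miR-676, miR-676*, miR-680, miR-682, miR-685 and miR-692 lower. In PYS they were miR-674, miR-684, miR-699, miR-702 and miR-715 higher and miR-680, miR-682, miR-692, miR-694, miR-704 and miR-708 lower. All the bounds are among these calls, and most lie too far from 0 for a change of scaling to lose them. Members measured in both groups had 11, 12 and 9 calls. Of these, the calls kept were miR-674* and miR-680 in L-1210, miR-674*, miR-676* and miR-680 in M1, and miR-680, miR-682, miR-699 and miR-704 in PYS. The 3 comparisons share the CT-BM replicates. In all 3, miR-674, miR-674* and miR-700 were called higher and miR-680, miR-682, miR-692, miR-694, miR-704 and miR-708 lower.

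Between the lines, L-1210 against M1 had 7 of 19 members called (3 higher, 25.3% of all tested; 4 lower, 30.9%), where 56.2% of 304 assays were called. This was the smallest count of the 6 comparisons, and it rose to 13 with MammU6 alone (10 higher, 3 lower) and to 11 with snoRNA202 alone (2 higher, 9 lower). PYS against L-1210 had 17 of 22 called (9 higher, 46.1%; 8 lower, 27.8%), where 73.9% of 349 were called, and the split was 14 higher and 3 lower with snoRNA202 alone and 6 and 9 with quantile normalization. PYS against M1 had 15 of 23 called (11 higher, 46.2%; 4 lower, 27.4%), where 73.5% of 340 were called, with 16 and 3 for MammU6 alone and 10 and 7 for snoRNA135 alone. Of the L-1210 against M1 calls, 5 were bounds, for miR-682 and miR-685 (higher) and miR-676*, miR-701 and miR-708 (lower), and the other two were miR-706 (higher) and miR-720 (lower).

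Among the 12 members detected in all 4 groups, miR-680 and miR-704 had lower levels relative to the controls in every line than in marrow, lowest in the teratocarcinoma line. Levels of miR-680 were −5.67, −5.56 and −5.08 in CT-BM, −9.02, −8.68 and −9.06 in M1, −7.89, −8.66 and −8.17 in L-1210, and −10.47 and −11.51 in the 2 PYS replicates present. The groups did not overlap, and the order ran from marrow through L-1210 and M1 to PYS, with L-1210 and M1 not called as different (log2 0.68 ± 0.31, limma adjusted p = 0.076). The fall was 47.0-fold in PYS (log2 −5.56 ± 0.35, limma adjusted p = 1.6e-08), 11.2-fold in M1 and 6.99-fold in L-1210, and these 3 calls held under all 7 scalings. Levels of miR-704 were −8.25, −8.15 and −7.60 in CT-BM, −9.26, −9.33 and −9.64 in M1, −9.64, −10.13 and −10.07 in L-1210 and −11.77, −11.83 and −12.23 in PYS. Marrow and PYS stood at the ends, and the leukaemia lines lay between them. The fall was 15.4-fold in PYS (log2 −3.95 ± 0.25, limma adjusted p = 5.01e-09), called under all 7 scalings, and 3.86-fold in L-1210 and 2.66-fold in M1, called under 6 each, with L-1210 at 0.07 with MammU6 alone. Mean raw Ct of miR-704 was 22.2 in CT-BM, 21.8 in M1, 22.6 in L-1210 and 24.9 in PYS. The M1 fall was thus not seen in raw Ct, and raw Ct was only slightly later in L-1210 than in CT-BM. Both falls were still called when no control RNA was used, with the mean of common assays and under quantile normalization. Their cause was not tested.

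The assays miR-699 and miR-700 moved the other way. miR-699 levels were −9.91, −9.46 and −9.25 in CT-BM, −7.91, −9.95 and −9.40 in M1, −7.99, −6.05 and −9.10 in L-1210 and −5.16, −6.21 and −5.55 in PYS. PYS was above CT-BM and M1 in every replicate and overlapped L-1210, whose replicates spread over about 3 log2 units. It rose 14.9-fold in PYS against CT-BM (log2 3.90 ± 0.68, limma adjusted p = 1.27e-04), under all 7 scalings, and 10.9-fold against M1. The 3.54-fold rise in L-1210 was called under 4 of 7 scalings (log2 0.17 to 3.85) and rested on replicate 2, since the log2 change was 1.82 with it and 0.99 without it, and its call was also lost without CT-BM replicate 1 (log2 1.64) or 2 (log2 1.86), where the adjusted p passed 0.05. PYS against L-1210, at 4.21-fold, was called under 4 of 7 scalings (log2 1.01 to 2.88) and was lost without L-1210 replicate 3 (log2 1.38), and L-1210 against M1 was not called but passed without L-1210 replicate 3 (log2 2.07) or M1 replicate 1 (log2 1.96). miR-700, within Rcan3, was tighter, with levels of −9.94, −10.33 and −10.16 in CT-BM, −8.17, −8.61 and −8.37 in M1, −8.58, −8.29 and −8.63 in L-1210 and −8.09, −8.07 and −8.43 in PYS. All lines lay above marrow and overlapped one another. It rose 3.85-fold in PYS (log2 1.95 ± 0.21, limma adjusted p = 1.78e-06), 3.39-fold in M1 and 3.13-fold in L-1210, called under 5, 6 and 5 of 7 scalings, with L-1210 at −0.01 with snoRNA202 alone.

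**Figure D4:**
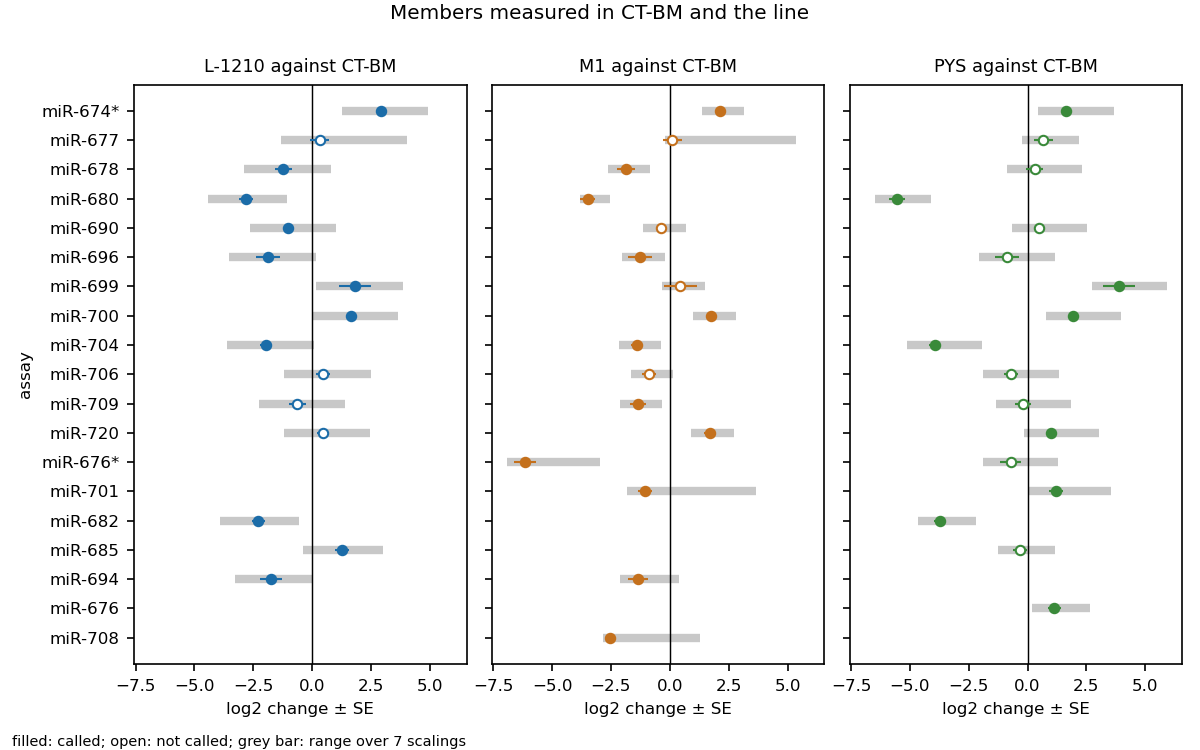
Log2 change against CT-BM (points, ± SE) of the members measured in both CT-BM and the line named above each panel, filled where called and open where not, with grey bars for the range over 7 scalings. The bars of miR-680 stay below 0 in all panels, those of miR-674* above 0, and many others cross 0.

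The members miR-709 and miR-720 crossed earliest. miR-709, a miRNA described in the nucleus of mouse cells where it affects miR-15a and miR-16 processing, had mean Ct of 14.8, 13.9, 14.4 and 13.8 in CT-BM, L-1210, M1 and PYS. Its levels were −0.59, −0.39 and −1.003 in CT-BM and −1.22, −2.42 and −2.42 in M1, a 2.56-fold fall (log2 −1.36 ± 0.34, limma adjusted p = 3.23e-03) called under 6 of 7 scalings. Mean raw Ct was not later in M1 than in CT-BM, so this fall was not seen in raw Ct, and the controls crossed earlier in M1. The log2 change stayed below 0 under all 7 scalings (−2.12 to −0.32). L-1210 and PYS against CT-BM were not called (log2 −0.62 and −0.18) and turned to 1.41 and 1.84 with MammU6 alone. PYS exceeded M1 by 2.26-fold, a call made under 4 of 7 scalings (log2 0.27 to 2.18) and lost without M1 replicate 2 or 3 (log2 0.97 and 0.98), and L-1210 against M1, not called, passed without M1 replicate 1 (log2 1.14). For miR-720, the reported transfer RNA fragment, levels were −3.93, −3.51 and −3.17 in CT-BM, −1.67, −1.83 and −2.04 in M1, −3.02, −2.99 and −3.22 in L-1210 and −2.54, −2.26 and −2.75 in PYS. M1 was highest, with no overlap, and exceeded CT-BM by 3.22-fold (log2 1.69 ± 0.23, limma adjusted p = 2.64e-05), under 6 of 7 scalings. PYS was 2.02-fold above CT-BM, called under 3 of 7 scalings, turned to −0.16 with snoRNA135 alone and lost without CT-BM replicate 1 (log2 0.82) or PYS replicate 2 (log2 0.89). L-1210 was 2.34-fold below M1, called under 4 of 7 scalings and turning to 0.30 under quantile normalization.

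The other members found everywhere were miR-678, miR-690, miR-696, miR-706 and miR-677. miR-678 had mean levels of −9.70 ± 0.07 (SD, n = 3) in CT-BM, −11.56 ± 0.61 in M1, −10.92 ± 0.41 in L-1210 and −9.40 ± 0.66 in PYS. It was 4.47-fold higher in PYS than in M1 (log2 2.16 ± 0.37, limma adjusted p = 1.12e-04), under all 7 scalings. It was 3.64-fold lower in M1 than in CT-BM, under 6 of 7. The 2.34-fold fall in L-1210 was called under 4 of 7 scalings, was lost without L-1210 replicate 3 (log2 −0.998) and turned to 0.80 with MammU6 alone. Mean raw Ct of miR-678 was 23.9 in CT-BM, 23.9 in M1 and 23.6 in L-1210, so neither fall was seen in raw Ct. The M1 fall was still called when no control RNA was used, with the mean of common assays and under quantile normalization. The L-1210 fall was called under neither of these scalings. The cause of the falls was not tested. miR-690 had mean levels of −5.62 ± 0.17, −6.62 ± 0.33, −5.97 ± 0.16 and −5.12 ± 0.11 in CT-BM, L-1210, M1 and PYS. PYS exceeded L-1210 by 2.83-fold (log2 1.502 ± 0.22, limma adjusted p = 2.7e-05), under 4 of 7 scalings. Its 2.01-fold fall in L-1210 against CT-BM lay at the fold minimum, was called under 4 of 7 scalings, was lost without CT-BM replicate 1 or 2 or L-1210 replicate 1 or 3 (log2 −0.998 to −0.91) and turned to 1.02 with MammU6 alone. Mean raw Ct of miR-690 was 19.3 in L-1210 and 19.8 in CT-BM, so this fall too was not seen in raw Ct. Without the control RNAs it was not called, at log2 −0.24 with the mean of common assays and 0.33 under quantile normalization.

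The assay miR-696, whose miRNA has been studied in skeletal muscle as a regulator of PGC-1alpha, had mean levels of −5.43 ± 0.15 in CT-BM, −6.69 ± 1.30 in M1, −7.31 ± 0.32 in L-1210 and −6.31 ± 0.55 in PYS. M1 replicate 1, at −5.18, lay at the marrow level, and replicates 2 and 3, at −7.51 and −7.37, with L-1210. The fall in L-1210 was 3.68-fold (log2 −1.88 ± 0.52, limma adjusted p = 5.23e-03), under 5 of 7 scalings and with 0.15 for MammU6 alone. The 2.39-fold fall in M1 was also called under 5 of 7 (log2 −2.02 to −0.22) and was lost without any CT-BM replicate (log2 −1.33 to −1.18) or M1 replicate 2 or 3 (−0.85 and −0.92). PYS, not called against either leukaemia line, passed against L-1210 without PYS replicate 3 (log2 1.31) and against M1 without M1 replicate 1 (log2 1.13). miR-706, the B1-like sequence, had mean levels of −5.98 ± 0.37, −5.51 ± 0.35, −6.88 ± 0.55 and −6.68 ± 0.06 in CT-BM, L-1210, M1 and PYS and was called against CT-BM in no line, although M1 passed without CT-BM replicate 1 (log2 −1.08) or M1 replicate 1 (−1.21). It was 2.58-fold higher in L-1210 than in M1 (log2 1.37 ± 0.30, limma adjusted p = 1.41e-03), under 5 of 7 scalings, and 2.25-fold lower in PYS than in L-1210, under 6 of 7. miR-677, within Atp5b, the ATP synthase beta subunit gene, was called in none of the 6 comparisons, with mean levels of −15.88 ± 0.67, −15.56 ± 0.59, −15.76 ± 0.52 and −15.20 ± 0.44 for these groups and overlapping replicates. It passed for PYS against CT-BM without CT-BM replicate 2 (log2 1.05), and its level, a late reading in all groups, moved to −3.66 for PYS against M1 under quantile normalization. Over these 12 members the highest group mean exceeded the lowest by 0.68 for miR-677 up to 5.56 for miR-680.

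The 22 members detected in no replicate were miR-675-3p, miR-675-5p, miR-681, miR-683, miR-686, miR-687, miR-688, miR-691, miR-693-3p, miR-693-5p, miR-695, miR-697, miR-698, miR-707, miR-708*, miR-710, miR-711, miR-712*, miR-713, miR-717, miR-718 and miR-719. An undetermined well sets an upper limit at the detection threshold and does not show absence of the RNA. Both arms of miR-675 are among them. H19, its host, is known for high activity in embryonic tissues.
mmu-miR-675-5p: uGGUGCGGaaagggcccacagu
mmu-miR-675-3p: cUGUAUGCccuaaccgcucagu
They are printed because both strands of this hairpin, at chr7:142577112-142577133 and chr7:142577078-142577099 (minus strand, within H19), gave no signal in marrow, leukaemia or teratocarcinoma cells. The star strand of miR-483, which lies in the neighbouring imprinted gene Igf2, was also undetermined throughout, so 0 of 3 assays measured at this locus were detected. The arms of miR-693, within Xpo5, the exporter of miRNA precursors, were likewise silent. Of the 9 assays whose number is shared with a human miRNA, 4 were detected, namely miR-676, miR-676*, miR-708 and miR-720, and all 4 were tested against CT-BM in each line. Called higher and lower were 0 and 3 in L-1210 (22.5% and 45.6% of all tested assays), 1 and 3 in M1 (25.2% and 44.3%) and 2 and 1 in PYS (39.8% and 38.7%). Of 2 assays listed as reported pieces of ribosomal or transfer RNA, a list that need not be complete, miR-720 was detected and miR-712* was not. Folding the RefSeq hairpins with RNAfold gave a median minimum free energy of −33.4 kcal/mol per 100 bases for 14 hairpins of detected members (−60.9 to −22.4) and −35.9 for 19 of members not detected (−66.7 to −20.0), ranges that largely overlapped.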

How the data were processed

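Total RNA was extracted with the mirVana kit, reverse transcribed, preamplified and run for 40 cycles on TaqMan low density array cards A and B, per the labels' protocols. The deposited values are Ct cycles (neither count nor log2) set with automatic baseline and threshold, per the file headers; the software and detection limit are not given in the sources used here. Ct 35 was the detection limit and stood in for later or undetermined wells. Repeat wells were averaged, and the mean of the 3 controls (MammU6, snoRNA135, snoRNA202) of each card was subtracted. An assay was tested if detected in every replicate present of at least 1 group compared. The means of 4 groups over 12 replicates were fitted with limma 3.58.1 (lmFit, eBayes) in R 4.3.3, with Benjamini-Hochberg adjustment over all tested assays; a call needs adjusted p under 0.05 and 2-fold. Absent values, 9 of 552 for the members, were left out. The script was tested on simulated data. Alternatives were other controls (alone and without MammU6, the latter chosen after seeing the data), the mean of common assays, quantile normalization, Ct limits of 32 and 40, filters, fold minimum, 2-group fits, a replicate block and leaving out replicates. Hairpins were folded with ViennaRNA RNAfold 2.7.2. Named members were all those detected, with full statistics in the comparison of largest moderated t. Members and lists were chosen with earlier results of these data known.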

Additional observations from a re-analysis of the deposited data

Results flagged for a closer look

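For 3 members, a pair of lines departed from marrow in opposite directions. The test of the difference is the contrast between the lines themselves, fitted with limma. It is a bound where a line gave no signal, and it does not test the directions against marrow. The rises above CT-BM were called under only some scalings: miR-685 in L-1210 under 5 of 7, miR-676 in PYS under 4 and miR-701 in PYS under 4. The sign of miR-685 turned with snoRNA202 alone (log2 −0.37), and the miR-676 call was lost without CT-BM replicate 3 (log2 0.98). miR-685 was above CT-BM in L-1210 and without signal in M1, and the lines differed by at least 14.09 on the log2 scale. miR-676 was above CT-BM in PYS and without signal in both leukaemia lines, with differences of at least 12.52 against L-1210 and at least 13.87 against M1. miR-701 was above CT-BM in PYS and without signal in L-1210, with a difference of at least 8.86. Between PYS and M1 the difference of miR-701 was 2.27, which turned to −0.10 under quantile normalization. The fall of miR-701 in M1 against CT-BM was itself called under 4 of 7 scalings.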

How the results depend on the processing

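Counts of called members in L-1210 against CT-BM, M1 against CT-BM, PYS against CT-BM, L-1210 against M1, PYS against L-1210 and PYS against M1 were 17, 17, 16, 7, 17 and 15. With only assays detected in every replicate of all groups they were 8, 8, 6, 2, 7 and 5 of 12 tested, and without a filter 42, 42, 34 and 15 in the first 4, where assays at the limit in both groups differ only through the controls. MammU6 alone gave 11 for M1 against CT-BM and 13 for L-1210 against M1; for the latter, snoRNA202 alone gave 11, the mean of common assays 12 and quantile normalization 11, and the cause was not tested. Leaving out a replicate gave 14 to 17, 15 to 18, 15 to 17, 7 to 10, 15 to 17 and 14 to 16. The labels do not say whether replicate numbers pair the samples. Same-number deviations correlated from −0.453 to 0.334 over 187 assays, which cannot exclude a shared run or day. With a replicate block the counts were 17, 17, 16, 7, 17 and 15, with 130 of 130 member results on the same side of the threshold. Signs of changes called under either of the settings compared turned as follows, with no cause tested; turns of changes called under neither are not listed. With MammU6 alone, L-1210 against CT-BM gave 0.80 (miR-678), 1.02 (miR-690), 0.031 (miR-694), 0.15 (miR-696), 0.075 (miR-704) and 1.41 (miR-709), and PYS against CT-BM 1.30 (miR-676*), 1.17 (miR-685), 1.32 (miR-706) and 1.84 (miR-709). With snoRNA202 alone, L-1210 against CT-BM gave −1.31 (miR-677), −0.37 (miR-685), −0.005 (miR-700), −1.18 (miR-706) and −1.19 (miR-720), and L-1210 against M1 −1.11 (miR-677). With snoRNA135 alone, miR-720 in PYS against CT-BM was −0.16. Quantile normalization gave 0.33 (miR-690, L-1210 against CT-BM), 0.38, 3.65 and 1.29 (miR-694, miR-701 and miR-708, M1 against CT-BM), −1.35 and 0.30 (miR-677 and miR-720, L-1210 against M1), −2.31 and −3.66 (miR-677, PYS against L-1210 and M1) and −0.10 (miR-701, PYS against M1). A Ct limit of 32 gave −0.56 (miR-684, PYS against CT-BM), since its wells lie at that limit. Preamplification and the undetermined wells limit low readings: folds against them are bounds.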
